A study of Mus musculus with 18 samples.

Results

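The genes described here are the RIKEN 1700 clone genes that are active in mouse round spermatids (RS). They still carry the number of a cDNA clone in place of a descriptive name, and the prefix 1700 marks an adult male testis library of the RIKEN full-length cDNA collection. Of 54232 genes in the count table, 522 had a symbol of this form, and 284 of these reached a mean of at least 5 CPM (the count of a gene scaled to its library's total) over the WT libraries. These 284 are the members, among 10449 genes of any name at that level. The members were thus chosen by their mean CPM in WT, which is given as a description only, and shares over all genes at the same WT level stand beside the counts of members. The members nearest the limit were the long intergenic noncoding RNA (lincRNA) 1700025K04Rik at 5.005 CPM and the antisense RNA 1700120E14Rik at 5.13, and just outside it were the antisense RNA 1700094J05Rik at 4.98 and the lincRNA 1700047M11Rik at 4.97. All 284 members passed the filter on low counts and were tested.

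RS are the haploid cells that follow meiosis, and they transcribe many testis-restricted genes before the nucleus is compacted and transcription stops. Many of their mRNAs are kept in the chromatoid body, an RNA-rich granule of the cytoplasm, and are translated later, when the spermatid elongates. Long noncoding RNAs are frequent in these cells, and antisense and divergent RNAs often start at or beside the promoters of other genes. GRTH, encoded by Ddx25, is a testis RNA helicase that takes part in the nuclear export, storage and translation of spermatid mRNAs.

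RNA-seq libraries came from RS of 3 genotypes with 6 libraries each, all from mice of 75 to 85 days. WT mice had intact GRTH and GRTH-KO mice lacked it, while GRTH-KI mice carried the human GRTH gene with a missense mutation and made the non-phosphorylated protein without its phosphorylated form. In both mutants spermatids stop at the round stage and do not elongate. The RS were obtained by sedimentation of digested testes through a BSA gradient, and the sources do not say whether each library is a separate animal, so the p-values measure the spread between these libraries, which may be technical. Library totals ran from 18766971 to 26776555 counts.

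Ddx25 was used to check the labels. It stood at 567 ± 24.7 normalised CPM (SD, n = 6, scaled with TMM factors) in WT and at 47.7 to 90.9 in KO, and 5 of 6 KI libraries were at 0.519 or below. The library labelled KI 4 was at 56.9, within the KO range. Its squared differences from KO 2 were 1.68 times counting noise, against 22.3 to 42.5 times from the other KI libraries. A further 6 pairs of one genotype (WT 1 and 2, WT 3 and 4, WT 5 and 6, KO 4 and 5, KI 1 and 2, KI 3 and 5) lay at 2.54 to 6.01 times counting noise, against 11.1 to 71.5 for the other 39 pairs of one genotype. The main counts of called members, but not the intervals, are therefore also given without the library labelled KI 4 and with each close pair summed.

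The 10 RS markers were present in all genotypes, with summed levels of 999 to 1533 normalised CPM for WT, 723 to 1609 for KO and 764 to 1162 for KI, and 4 of them were lower in KI. All 12 elongating spermatid markers, led by the protamine gene Prm2, were lower in both mutants, with sums of 16197 to 22254, 1899 to 4767 and 2507 to 3863. The paper names all 12 among its changed genes from these same libraries, so their joint fall adds no separate support. All 8 Leydig cell markers were higher in both mutants, with sums of 12.01 to 26.3, 39.2 to 70.8 and 16.2 to 86.3. Of 10 spermatocyte markers, 4 rose and 2 fell in KO, and 3 rose and 1 fell in KI, within sums of 978 to 1304, 1069 to 1400.5 and 1082 to 1403. Of 9 spermatogonium markers tested 3 rose in KO and 1 in KI, 3 of 10 Sertoli cell markers fell in each mutant, and of 8 macrophage, endothelial and peritubular markers 1 fell in each while 2 rose in KO and 1 in KI. No marker was at 0 in all libraries. The elongating spermatid and Leydig cell lists thus moved as a whole with genotype in the libraries that gave the members' values. The other lists moved in part, and no RS marker was called in KO. What part these cell types have in the members' changes was not tested. In bulk samples, fewer cells of a type and less RNA per cell cannot be told apart.

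By annotation, 95 members were protein coding, 94 lincRNAs, 48 antisense RNAs, 17 processed transcripts and 7 bidirectional promoter lncRNAs, and the rest were pseudogenes or other small classes. Coding genes made up 33.5% of members, against 86.5% of all genes at 5 CPM or more in WT. The coding members were short, with a median of 208 residues in the longest protein against 491 for coding genes at that level, and 45 of 95 had fewer than 200 residues (47.4% against 12.6%). The summed exon length of all members had a median of 1046 bases, against 4025 for all genes at that level. A single exon was found in 6 coding members (6.32%, against 2.63% of coding genes at that level) and in 24 other members (12.7%, against 29.6% of other genes), and 6 members were X-linked (2.11% against 2.20%).

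In RefSeq, 251 members had an entry under the same symbol and 10 had been given a descriptive name. Among the renamed genes, 1700024P04Rik is H2bl1, a testis histone H2B variant, 1700017D01Rik and 1700025F22Rik are Ms4a20 and Ms4a19 of a family of membrane proteins, 1700021F05Rik is Mtres1, a mitochondrial RNA-binding factor, and 1700020I14Rik is the long noncoding RNA Oip5os1. The others are Fam166c, Pttg1ip2, Efcab15, Acsbg3 and Nudt16l2.

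The promoters of 203 members (RefSeq, GRCm38.p6, 250 bases before to 50 after the start) were searched on both strands for 10 motifs of spermatid factors and general promoter elements. GTTGCCATG, letters of the X-box that RFX factors of ciliary genes bind, was in 9 of them (4.43%), against 1.302% of promoters of genes at 5 CPM or more in WT and 0.877% of all 27025 promoters. The other motifs are given as the share of member promoters, of promoters of genes at 5 CPM or more in WT and of all promoters, in that order. GTTGCC, which lies within that motif, was in 21.7%, 17.1% and 14.1%. The core of the CREM site, TGACG, was in 26.1%, 36.6% and 23.05%, and the longer TGACGTCA and TGACGTAA, which both contain it, were in 1.97%, 4.02% and 2.03% and in 1.48%, 1.06% and 0.581%. Of general elements, CCAAT was in 40.9%, 44.03% and 41.1% and TATAAA in 12.3%, 8.88% and 15.7%. ACAAT, a SOX core, was in 40.9%, 27.3% and 34.4%, CAACAG in 19.7%, 16.1% and 18.2% and CAGTTA in 16.7%, 9.85% and 11.4%. A match is a description of letters and not a bound site.

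Promoters of 3 coding members with GTTGCCATG are shown 5′ to 3′ on the gene's strand, with the match in capitals on whichever strand it lies. They were chosen because 1700001K19Rik (chr12:110682570-110682869, minus strand) and 1700109H08Rik (chr5:3571466-3571765, plus strand) fell in both mutants, and 1700010I14Rik (chr17:8988083-8988382, plus strand) was the coding member with the most counts in WT and was called in neither. The match starts 67 bases before the start in the first, 68 in the second and 20 in the last.
1700001K19Rik: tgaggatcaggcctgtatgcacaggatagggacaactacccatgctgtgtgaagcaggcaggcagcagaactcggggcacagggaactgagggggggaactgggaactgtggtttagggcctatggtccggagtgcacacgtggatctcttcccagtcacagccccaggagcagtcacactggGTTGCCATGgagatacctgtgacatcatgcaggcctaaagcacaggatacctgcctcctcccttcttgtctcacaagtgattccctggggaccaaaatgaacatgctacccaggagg
1700109H08Rik: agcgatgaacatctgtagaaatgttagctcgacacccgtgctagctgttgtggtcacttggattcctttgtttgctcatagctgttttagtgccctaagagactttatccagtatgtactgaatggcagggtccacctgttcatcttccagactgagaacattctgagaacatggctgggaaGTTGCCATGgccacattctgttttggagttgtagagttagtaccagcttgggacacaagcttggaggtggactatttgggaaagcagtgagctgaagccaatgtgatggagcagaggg
1700010I14Rik: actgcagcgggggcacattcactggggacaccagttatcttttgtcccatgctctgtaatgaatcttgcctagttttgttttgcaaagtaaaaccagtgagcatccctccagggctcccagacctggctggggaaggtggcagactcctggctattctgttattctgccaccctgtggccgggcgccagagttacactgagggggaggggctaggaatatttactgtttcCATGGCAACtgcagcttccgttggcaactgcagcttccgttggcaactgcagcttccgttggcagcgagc

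Of the other 6 members with this match, 1700030C14Rik, 1700064M15Rik, 1700099I09Rik and 1700125H20Rik were lower in both mutants, and 1700034J05Rik and 1700041B01Rik were called in neither. It was in 6 of 103 promoters of members lower in KO and in 3 of 100 of the other members. Of 21 promoters of members that fell past 1 log2 unit in KO or KI, 14 held ACAAT (66.7%). ACAAT was in 40.9% of all member promoters and in 27.3% of those of genes at 5 CPM or more in WT. It was in 40 of 103 promoters of members lower in KO (38.8%) and in 43 of 100 of the other members. These motifs were singled out after their shares were seen. The promoter of 1700012A03Rik (chr6:32050038-32050337, plus strand), the coding member with the largest fall among those above 100 normalised CPM in WT, is shown with ACAAT in capitals on whichever strand it lies.
1700012A03Rik: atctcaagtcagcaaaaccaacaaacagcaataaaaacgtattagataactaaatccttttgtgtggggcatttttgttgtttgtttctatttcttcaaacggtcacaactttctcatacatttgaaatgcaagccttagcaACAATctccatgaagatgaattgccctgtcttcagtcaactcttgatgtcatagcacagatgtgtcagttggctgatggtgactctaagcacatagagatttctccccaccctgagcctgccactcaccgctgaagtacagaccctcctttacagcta

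The members together took 1.61% ± 0.0899 of all counts for WT (SD, n = 6), 1.24% ± 0.183 for KO and 1.196% ± 0.122 for KI. WT libraries ran from 1.46% to 1.699%, KO libraries from 0.925% to 1.43% and KI libraries from 1.03% to 1.32%, so neither mutant overlapped with WT. Because WT chose the members, the share was also taken over 1700 genes with a mean of 5 CPM over all 18 libraries, where it was 1.602% for WT, 1.242% for KO and 1.194% for KI. The coding members had 1.04% of counts for WT, 0.788% for KO and 0.745% for KI, and the other members 0.5696%, 0.457% and 0.451%. The lowest library was KO 3, and the library labelled KI 4 was at 1.15%, within the range of the other KI libraries. The coefficient of variation of a member over 6 libraries had a median of 16.5% for WT, 23.01% for KO and 21.7% for KI, against 15.2%, 15.9% and 19.95% over all genes at 5 CPM or more in WT.

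**Figure D1:**
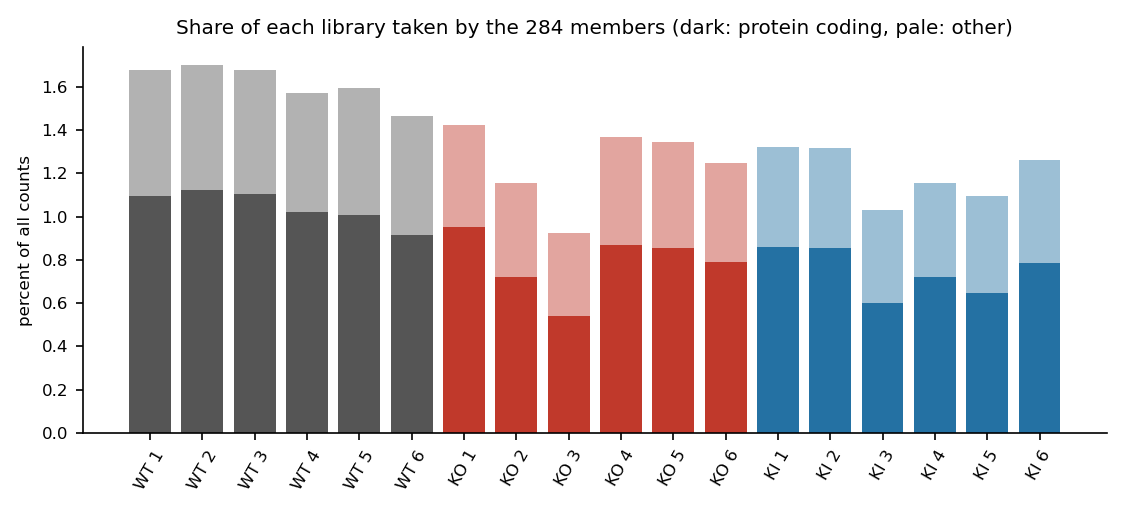
Percent of all counts (y axis) taken by the 284 members in each of 18 libraries (x axis), with coding members as the dark and other members as the pale part of a bar. The WT bars end between 1.46% and 1.699%, and all mutant bars end at 1.43% or below.

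Levels of different genes were compared per exon length (TPM) in WT. The highest coding members were 1700020D05Rik at 341 ± 46.3 TPM (SD, n = 6), rank 73 of all genes, and 1700010I14Rik at 318 ± 43.4. They were followed by 1700028P14Rik at 252 ± 24.4, 1700123L14Rik at 248 ± 66.6 and 1700029H14Rik at 246 ± 93.3, and of the steps in this order that from 1700010I14Rik to 1700028P14Rik exceeded the SD of both genes. Of the other members, the processed pseudogene 1700019M22Rik stood at 275 ± 139.7 TPM, the transcribed processed pseudogene 1700001J11Rik at 243 ± 10.3 and the unitary pseudogene 1700086L19Rik at 236 ± 20.3. The processed pseudogene 1700049L16Rik at 171 ± 44.4 and the lincRNA 1700008K24Rik at 170.4 ± 35.9 came next, and here the step from 1700086L19Rik to 1700049L16Rik exceeded the SD of both. A processed pseudogene shares sequence with its parent gene and only uniquely placed reads were counted, so those levels are uncertain.

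The first comparison asked how RS without GRTH differ from WT. A member was called at an adjusted p under 0.1 in edgeR's quasi-likelihood test over 21058 genes, and called past 1 log2 unit when the same held for a test against a change of that size. In KO, 141 members were lower (49.6%) and 11 higher (3.87%). Of all genes tested, 13.5% were lower and 16.4% higher, and of those at 5 CPM or more in WT, 18% and 16.3%. Past 1 log2 unit 21 members were lower (7.39%) and 0 higher, against 1.13% and 0.598% of all genes tested and 1.78% and 0.0479% of those at 5 CPM or more in WT. DESeq2 also gave 21 and 0, against 0.58% and 0.259% of the 43980 genes it tested. An unadjusted p under 0.05 in edgeR's test against 1 log2 unit gave 30 and 0. These counts have no share over all genes beside them and are not read further. The median log2 fold change of members was -0.40, with 254 below 0, against 0.03 over all genes tested and -0.01 over those at 5 CPM or more in WT. Of the 21058 genes tested 9984 were below 0, and of the 10447 at 5 CPM or more in WT 5302.

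The second comparison set KI against the same 6 WT libraries, so the KO and KI comparisons share their controls. In KI, 169 members were lower (59.5%) and 6 higher (2.11%), against 15.4% and 16.1% of all genes tested and 20.8% and 17.3% of those at 5 CPM or more in WT. Past 1 log2 unit 27 members were lower (9.51%) and 0 higher, against 1.43% and 0.522% of all genes tested and 2.24% and 0.0479% of those at 5 CPM or more in WT. DESeq2 gave 27 and 0, against 0.675% and 0.257% of the 43980 genes it tested. An unadjusted p under 0.05 in edgeR's test against 1 log2 unit gave 36 and 0. Again these counts have no share over all genes beside them and are not read further. The median was -0.56, with 245 below 0, against 0.05 over all genes tested. Of the 21058 genes tested 9415 were below 0, and of the 10447 at 5 CPM or more in WT 4972. With close pairs summed, 101 members stayed lower for KO and 112 for KI, with 16 past 1 log2 unit for each. In that fit 7.74% of all genes tested were lower for KO and 7.73% for KI, and 0.759% were lower past 1 log2 unit for each. Without the library labelled KI 4, 170 members were lower for KI, against 15.8% of all genes tested.

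Libraries of single members often did not overlap. Every KO library lay below every WT library in 75 members (26.4%), against 6.44% of all genes tested and 9.77% of those at 5 CPM or more in WT, and every one lay above in 1, against 6.62% and 7.2%. Every KI library lay below in 108 members (38.0%), against 7.91% and 12.1%, and above in 2, against 5.97% and 7.06%. Without the library labelled KI 4 the KI count was 123, against 9.46% of all genes tested. Of the lower members, 133 were lower in both mutants, 8 were called for KO alone and 36 for KI alone, a difference that the direct comparison of KI and KO tests. All 21 members past 1 log2 unit in KO were among the 27 in KI, and 0 members were called in opposite directions. In all 27, every KO and every KI library lay below every WT library. The 27 were chosen by their fall in these same libraries, so this describes them and adds no separate support.

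**Figure D2:**
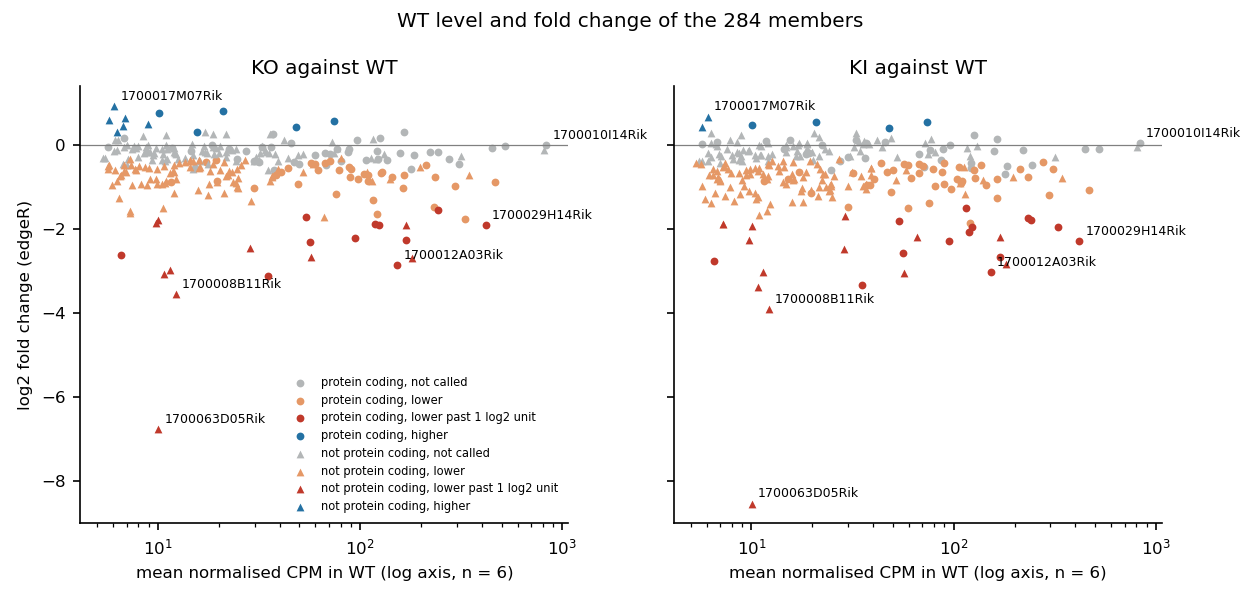
Log2 fold change (y axis) of the 284 members in KO and in KI against their mean normalised CPM in WT (x axis, log scale), with circles for coding and triangles for other members. Red points are the 21 members for KO and 27 for KI that were lower past 1 log2 unit, and they occur at low and at high WT levels.

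With membership set by the mean over KO and KI in place of WT, 258 genes qualified, of which 112 were lower and 11 higher in KO and 138 lower and 6 higher in KI. Of all 10850 genes tested with that mean at 5 CPM or more, 15.4% were lower and 18.98% higher in KO, and 17.9% and 19.7% in KI. Past 1 log2 unit, 13 of the 258 were lower in KO and 18 in KI, against 1.33% and 1.71% of all genes at that mean. In the other direction, 33 members had a mean under 5 CPM over KO and KI, and 7 further 1700 genes were under 5 CPM in WT and at 5 or more over KO and KI.

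Coding and other members are compared by their counts. In KO, 47 of 95 coding members and 94 of 189 other members were lower, and in KI 58 and 111. Past 1 log2 unit these were 11 and 10 in KO, and 14 and 13 in KI. By class, 49 lincRNAs, 24 antisense RNAs, 5 bidirectional promoter lncRNAs and 7 processed transcripts were lower in KO, and 58, 29, 6 and 7 in KI. Of genes at 5 CPM or more in WT, 16.2% of coding and 29.5% of other genes were lower in KO, and 18.8% and 33.7% in KI. The shares past 1 log2 unit were 1.66% and 2.56% in KO, and 2.12% and 2.98% in KI. Testis clone genes of the same collection with 6 other prefixes gave 124 lower of 372 in KO (33.3%) and 159 in KI (42.7%), and RIKEN clones of other libraries 39 of 184 (21.2%) and 44 (23.9%). These sets were not tested against the members.

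**Figure D3:**
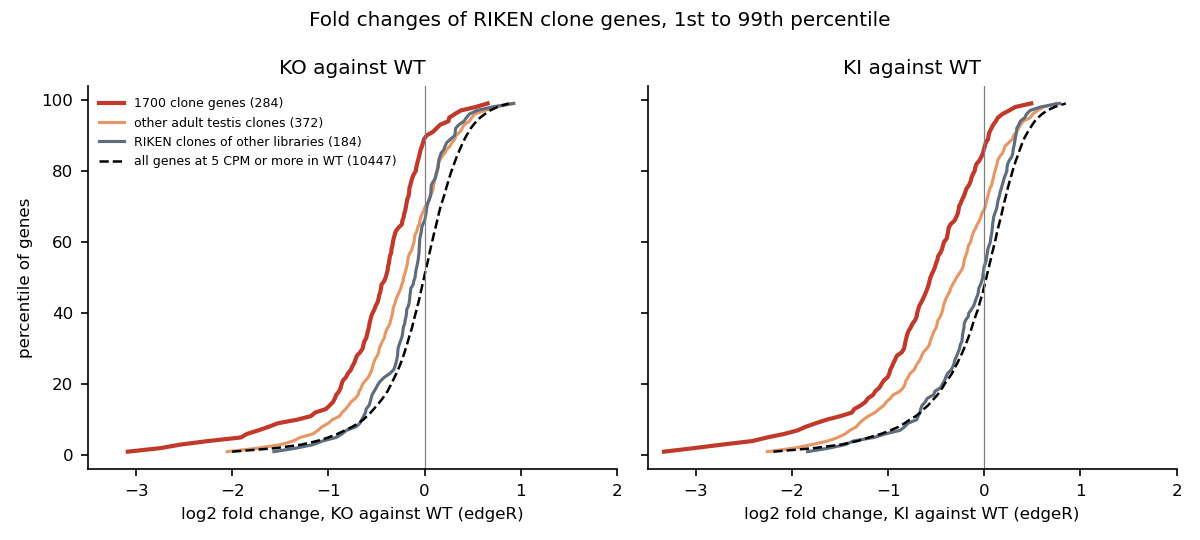
Percentile of genes (y axis) against log2 fold change (x axis) in KO and KI, for the 284 members, 372 other testis clone genes, 184 RIKEN clones of other libraries and all genes at 5 CPM or more in WT. The members reach their median at -0.40 for KO and -0.56 for KI, to the left of the other curves.

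The 8 largest falls among members without overlap were the same genes for KO and KI. Levels below are normalised CPM, given as the lowest, median and highest of 6 libraries, and fold changes are log2 with their SE and edgeR adjusted p. The lincRNA 1700063D05Rik (chr9:41192446-41217990, plus strand) fell most. It ran at 8.15, 10.01 and 11.97 in WT, at 0, 0.0747 and 0.216 in KO and at 0, 0.0212 and 0.0467 in KI. In counts it had 168 to 298 reads per WT library, 0 to 5 per KO library and 0 or 1 per KI library, so that all 6 KI libraries and 5 of 6 KO libraries were at or under a floor of 3 counts. Against the highest such floor of any KI library on the normalised scale, the KI level was at least 71.6-fold lower than WT.

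The antisense RNA 1700008B11Rik (chr5:121835195-121835828, plus strand) lies across from Sh2b3, a signalling adaptor gene, with no shared exon bases. It ran at 10.2, 12.7 and 13.9 in WT, at 0.427, 0.928 and 1.79 in KO and at 0.421, 0.874 and 1.06 in KI. The log2 fold change was -3.55 ± 0.26 in KO (adjusted p = 1.59e-09) and -3.90 ± 0.27 in KI (adjusted p = 4.55e-10). WT did not overlap with either mutant, whose ranges overlapped each other. Sh2b3 stood at 66.6 ± 8.15 in WT (SD, n = 6), 83.2 ± 15.8 in KO and 84.8 ± 16.5 in KI, with a log2 fold change of 0.32 (adjusted p = 0.116) and 0.35 (adjusted p = 0.0828).

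Of these 8 members, 2 are coding. 1700008P02Rik (chr3:6615418-6620443, minus strand, 175 residues) had a log2 fold change of -3.11 ± 0.20 in KO (adjusted p = 2.44e-10) and -3.32 ± 0.20 in KI (adjusted p = 9.33e-11). It ran at 28.9, 35.6 and 39.8 in WT, at 2.399, 4.26 and 5.17 in KO and at 2.01, 3.499 and 5.04 in KI. 1700012A03Rik (chr6:32050246-32058921, plus strand, 130 residues), whose promoter is printed above, had -2.87 ± 0.18 (adjusted p = 2.54e-10) and -3.02 ± 0.18 (adjusted p = 1.16e-10). It ran at 126, 152 and 170.4 in WT, at 10.6, 21.9 and 28.8 in KO and at 14.8, 19.2 and 21.8 in KI. The WT libraries of both genes stood far above all mutant libraries.

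The other lincRNAs of this group were 1700084D21Rik (chr13:113136083-113144012, plus strand) and 1700009J07Rik (chr10:77893417-77896114, plus strand). The first ran at 10.3, 11.5 and 12.6 in WT, at 0.818, 1.47 and 2.096 in KO and at 0.935, 1.28 and 2.29 in KI. Its log2 fold change was -2.99 ± 0.22 in KO and -3.02 ± 0.22 in KI. The second ran at 43.5, 57.1 and 63.9 in WT, at 4.42, 9.04 and 11.5 in KO and at 5.29, 7.32 and 8.26 in KI. Its log2 fold change was -2.66 ± 0.18 in KO and -3.05 ± 0.18 in KI. Neither overlapped between WT and a mutant.

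**Figure D4:**
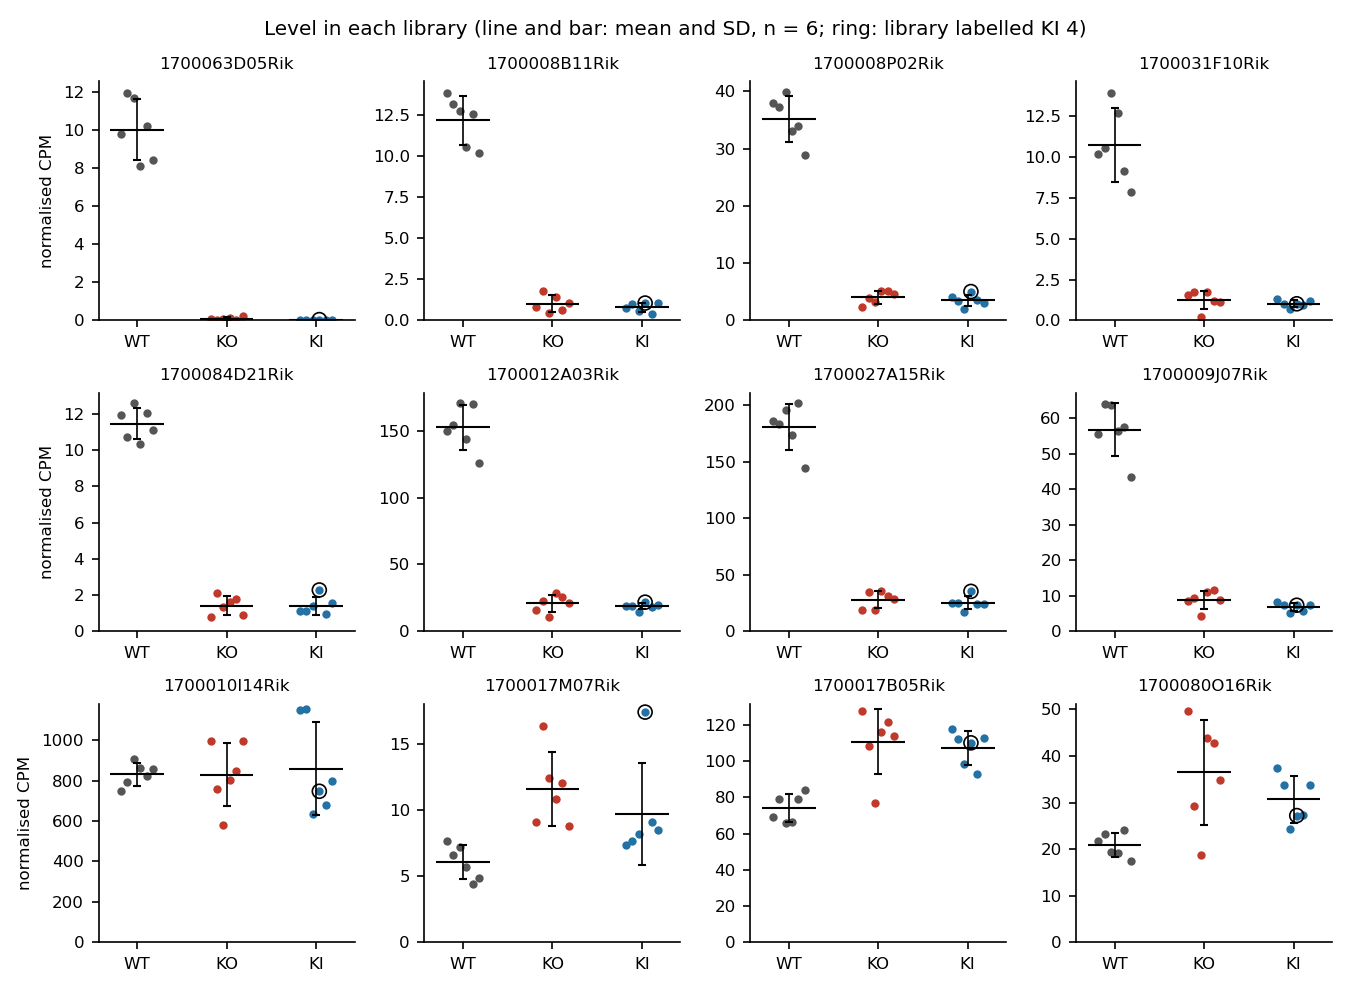
Normalised CPM (y axis, from 0 in each panel) of the 8 members with the largest falls, of 1700010I14Rik and of 3 members that rose, in 18 libraries (points), with mean and SD. The WT points of the 8 falling members lie above all mutant points, and for 1700017M07Rik the ringed library labelled KI 4 lies above the other KI libraries.

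The remaining members of the 8 are antisense RNAs that overlap exons of a spermatid gene. 1700027A15Rik (chr1:72984844-73025507, plus strand) shares 40 exon bases with Tnp1, which encodes a transition protein that replaces histones. It ran at 145, 185 and 202 in WT, at 18.9, 29.96 and 35.8 in KO and at 17.1, 24.8 and 35.4 in KI. Its log2 fold change was -2.69 ± 0.18 in KO and -2.84 ± 0.18 in KI, while Tnp1, at 1999 ± 223 in WT (SD, n = 6), 583 ± 149 in KO and 541 ± 128 in KI, had -1.78 ± 0.18 and -1.89 ± 0.18. The antisense count was 8.01% to 10.2% of the Tnp1 count in WT libraries, 4.42% to 5.31% in KO and 4.06% to 5.22% in KI. The WT ratios did not overlap with those of either mutant, but how many Tnp1 reads carried the wrong strand was not measured.

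1700031F10Rik (chr6:88222602-88225678, minus strand) shares 525 exon bases with Dnajb8, a testis co-chaperone gene. It ran at 7.82, 10.4 and 13.9 in WT, at 0.237, 1.34 and 1.75 in KO and at 0.685, 1.01 and 1.32 in KI. Its log2 fold change was -3.08 ± 0.27 in KO and -3.38 ± 0.28 in KI, and that of Dnajb8 -2.17 ± 0.22 and -2.34 ± 0.22. The level of Dnajb8 was 252 ± 33.8 in WT, 56.01 ± 20.5 in KO and 49.5 ± 7.43 in KI, each with its SD over 6 libraries. The count was 3.36% to 5.497% of the Dnajb8 count in WT, 1.15% to 3.604% in KO and 1.88% to 2.46% in KI, so that the WT and KO ratios overlapped. The counting used strand, but how many Dnajb8 reads carried the wrong strand was not measured.

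A further member beside a gene called past 1 log2 unit was 1700001O22Rik (chr2:30794769-30803661, minus strand, 375 residues), which starts 132 bases from 4930527E20Rik and runs the other way. It ran at 96.95, 128 and 132 in WT, at 18.8, 33.8 and 42.2 in KO and at 26.9, 32.5 and 34.8 in KI. Its log2 fold change was -1.89 ± 0.15 and -1.96 ± 0.15, and that of 4930527E20Rik -2.35 ± 0.18 and -2.38 ± 0.18. Both genes of this pair were lower in both mutants.

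Across all members, 59 had a gene on the opposite strand starting within 1 kb, and 100 others overlapped an opposite-strand gene without such a start. Of 48 divergent pairs whose neighbour was at 5 normalised CPM or more in WT, 26 had a lower member in KO, and in 9 of these the neighbour was lower, in 1 higher and in 16 not called. The median log2 fold change there was -0.36 for members and -0.09 for neighbours. Of 55 antisense pairs, 26 had a lower member in KO, with 4 lower, 3 higher and 19 uncalled neighbours, and medians of -0.39 and 0.06. In KI, 26 divergent pairs had a lower member and 9 of them a lower neighbour, and 30 antisense pairs had a lower member and 8 of them a lower neighbour. Whatever the member did, 14 of the 48 divergent neighbours were lower and 3 higher in KO, and 13 and 8 in KI. Of the 55 antisense neighbours these were 13 and 10 in KO, and 14 and 11 in KI. Of all genes at 5 CPM or more in WT, 18% were lower and 16.3% higher in KO, and 20.8% and 17.3% in KI. The neighbours were not tested against those genes.

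**Figure D5:**
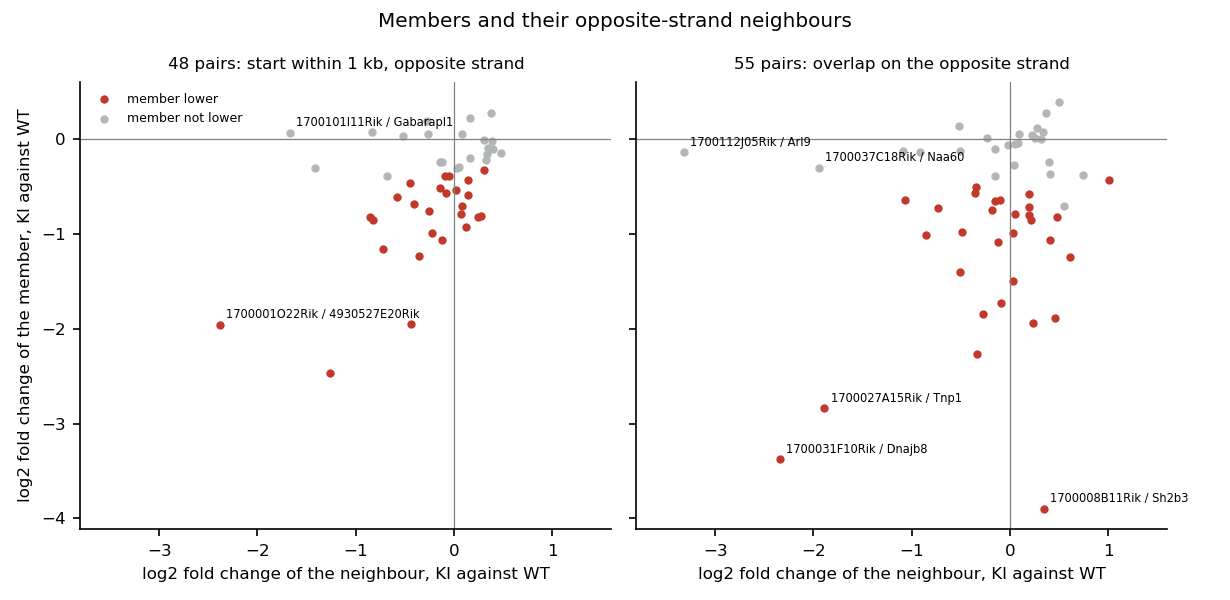
Log2 fold change in KI against WT of members (y axis) and of their opposite-strand neighbours (x axis), for 48 pairs with starts within 1 kb and 55 overlapping pairs. Red points are pairs with a lower member, and pairs with large changes are named.

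In some pairs, named after their values were seen, the neighbour changed and the member was not called. The lincRNA 1700112J05Rik had a log2 fold change of -0.02 in KO and -0.14 in KI, while Arl9, a small GTPase gene with which it shares 262 exon bases, fell by 3.05 and 3.32. 1700101I11Rik had 0.21 and 0.07, while its divergent neighbour Gabarapl1, an autophagy gene, fell by 1.51 and 1.67. The coding 1700037C18Rik had -0.06 and -0.30, while Naa60, an acetyltransferase gene, fell by 1.78 and 1.94.

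Other members past 1 log2 unit include named coding genes, picked after their values were seen. H2bl1 (1700024P04Rik, chr13:98984085-98984565, minus strand) encodes a histone H2B variant. It ran at 44.5, 54.2 and 64.98 in WT, at 9.31, 16.8 and 20.8 in KO and at 12.1, 14.8 and 21.7 in KI. Nudt16l2 (1700080E11Rik) had medians of 55.6, 11.9 and 8.92, with a log2 fold change of -2.32 ± 0.19 in KO and -2.57 ± 0.19 in KI. 1700015G11Rik (chr7:52011683-52015728, minus strand) is the shortest coding member, with 71 residues in its longest form. It ran at 78.3, 94.8 and 108 in WT, at 12.6, 21.8 and 25.2 in KO and at 14.6, 18.6 and 25.6 in KI. The coding sequence of 1 of its annotated transcripts (GENCODE M21, 204 bases for 67 residues) shows how short it is, with start and stop codons in capitals.
1700015G11Rik: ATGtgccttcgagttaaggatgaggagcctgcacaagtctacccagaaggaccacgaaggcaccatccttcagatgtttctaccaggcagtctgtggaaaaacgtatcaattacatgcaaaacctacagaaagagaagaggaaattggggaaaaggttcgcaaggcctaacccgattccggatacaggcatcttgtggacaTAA

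1700029H14Rik, with the highest WT level of the members past 1 log2 unit, spread widely. It ran at 292, 399.9 and 549 in WT, at 45.1, 112 and 195 in KO and at 68.6, 87.4 and 104 in KI. 1700016H13Rik, past that limit in both mutants, had medians of 170.3 in WT, 35.2 in KO and 27.8 in KI. 1700009N14Rik, past it in KI alone, had 327, 103 and 87.02. In each of these the mutant libraries lay below all WT libraries.

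Few members rose, and none past 1 log2 unit. The lincRNA 1700017M07Rik (chr3:35256462-35276131, minus strand) did not overlap with WT in KO. It ran at 4.405, 6.15 and 7.68 in WT, at 8.79, 11.4 and 16.4 in KO and at 7.37, 8.35 and 17.4 in KI. It was higher by 0.93 ± 0.21 in KO (adjusted p = 0.00232) and by 0.67 ± 0.21 in KI (adjusted p = 0.0216), and its highest KI value is that of the library labelled KI 4. Without that library its log2 fold change in KI was 0.42 and it was still called, and with close pairs also summed it was 0.47 and no longer called. The coding 1700017B05Rik (chr9:57253117-57262612, minus strand, 1023 residues) did not overlap with WT in KI. It ran at 65.9, 73.9 and 83.9 in WT, at 77.03, 115 and 128 in KO and at 92.7, 111 and 117 in KI. It was higher by 0.58 ± 0.12 (adjusted p = 0.00104) and 0.54 ± 0.12 (adjusted p = 0.00197). The X-linked coding 1700080O16Rik (chrX:51968695-51972772, minus strand) also did not overlap in KI. It ran at 17.6, 20.7 and 24.2 in WT, at 18.8, 38.8 and 49.7 in KO and at 24.3, 30.6 and 37.5 in KI. It was higher by 0.80 ± 0.18 (adjusted p = 0.00197) and 0.55 ± 0.18 (adjusted p = 0.0255). The 11 rises in KO became 7 without WT 4, without KO 4 or without KO 5, and the 6 rises in KI became 4 without any of WT 2, WT 5, the library labelled KI 4 and KI 6. With close pairs summed, 5 rises in KO and 2 in KI were left, and 1 in KI when the library labelled KI 4 was also out.

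For 28 members the 95% interval of the log2 fold change lay within 0.5 of 0 in both mutants. The one with the most counts was 1700010I14Rik (chr17:8988333-9008319, plus strand), with an interval of -0.35 to 0.34 in KO and -0.29 to 0.39 in KI. It ran at 747, 839.6 and 906 in WT, at 582, 823 and 997 in KO and at 634, 771 and 1152 in KI. The intervals of the pseudogene 1700001J11Rik were -0.49 to 0.24 and -0.40 to 0.32, and those of the coding 1700019A02Rik -0.46 to 0.10 and -0.42 to 0.14. The lincRNA 1700029M20Rik had -0.18 to 0.48 and -0.41 to 0.25, and the processed transcript 1700051A21Rik -0.47 to 0.08 and -0.48 to 0.06. Changes beyond 0.5 log2 units are thus outside the intervals of these genes in the fit of all libraries. That fit treats close pairs as separate libraries and includes the KI library that lay close to a KO library. The intervals may therefore be too narrow, and they are not given with close pairs summed.

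The members with the highest levels per length differed in their changes. 1700020D05Rik had a log2 fold change of -0.08 in KO and -0.09 in KI, and 1700123L14Rik of -0.02 and -0.09, and neither was called. 1700028P14Rik had -0.33 in KO (adjusted p = 0.136) and -0.40 in KI (adjusted p = 0.0676), and 1700086L19Rik had -0.26 (adjusted p = 0.253) and -0.28 (adjusted p = 0.191). 1700019M22Rik fell by 0.86 and 1.17 and 1700008K24Rik by 0.51 and 0.76 on the log2 scale. 1700049L16Rik had -0.31 in KO (adjusted p = 0.197) and -0.51 in KI (adjusted p = 0.0294).

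Because both mutants carry an altered Ddx25 locus (chr9:35536647-35558528), members near it were examined. The window of 10 Mb on either side held 3 members. The most reduced member, 1700063D05Rik, lies 5.63 Mb away. 1700110K17Rik, 4.76 Mb away, had -0.59 ± 0.20 in KO (adjusted p = 0.0323) and -0.37 ± 0.20 in KI (adjusted p = 0.189). It ran at 15.03, 21.2 and 22.7 in WT, at 10.2, 13.7 and 17.6 in KO and at 9.78, 14.1 and 23.1 in KI. 1700001J11Rik, 4.49 Mb away, was called in neither. Of 168 genes tested in the window, Ddx25 left out, 20.2% were lower in KO and 15.5% in KI. Over all genes tested these shares were 13.5% and 15.4%. Whether DNA linked to the altered locus differs between genotypes was not tested.

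The third comparison set KI against KO. In edgeR's test 0 members were called in either direction, against 0.0237% lower and 0.076% higher of all genes tested and 0.0191% and 0.0287% of those at 5 CPM or more in WT. Past 1 log2 unit, 0.00475% of all genes tested were higher. DESeq2 called 1 member higher, against 0.159% higher of the 43980 genes it tested. At an unadjusted p under 0.05 in edgeR's test for a change of any amount, 19 members were lower and 2 higher. No share over all genes is set beside these counts, so they are not read as a shift. The KI libraries of 0 members lay all below or all above the KO libraries, against 0.104% and 0.119% of all genes tested and 0.067% and 0.0957% of those at 5 CPM or more in WT. The median of the members was -0.15, with 218 below 0, against -0.02 over all genes tested. Of the 21058 genes tested 11268 were below 0, and of the 10447 at 5 CPM or more in WT 5609.

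Without the library labelled KI 4, 4 members were lower and 1 higher in KI than in KO, against 0.2399% lower and 0.282% higher of 21257 genes tested. 1700001F09Rik was at 10.04 to 14.8 in the other KI libraries, at 64.5 in the library labelled KI 4 and at 41.6 to 63.6 in KO. This coding gene (chr14:43342383-43347811, minus strand) was at 38.6 to 82.9 in WT. Its log2 fold change was -2.05 ± 0.20 (SE, edgeR adjusted p = 4.05e-06) without that library and -1.27 (adjusted p = 0.452) with it. 1700066B17Rik was at 3.31 to 8.27 in the other KI libraries, at 11.8 in the library labelled KI 4 and at 7.65 to 12.7 in KO. 1700095A21Rik was at 9.99 to 16.6 in the other KI libraries, at 23.8 in the library labelled KI 4 and at 17.1 to 26.2 in KO. 1700030F04Rik was at 5.19 to 6.77 in the other KI libraries, at 11.6 in the library labelled KI 4 and at 6.13 to 11.2 in KO. These 3 followed the same order, with the library labelled KI 4 above the other KI libraries. 1700067G17Rik was at 3.36 to 5.84 in the other KI libraries, at 2.75 in the library labelled KI 4 and at 2.14 to 3.33 in KO. This gene was the one higher in KI, where the library labelled KI 4 lay below the others. All 5 members were chosen because they were called only without that library. Its place apart from the other KI libraries thus follows from the choice and adds no separate support. With close pairs also summed, 2 of the 5 were still called, both lower. These were 1700001F09Rik, at -2.07 (adjusted p = 6.94e-04), and 1700066B17Rik, at -1.09 (adjusted p = 0.0955), against 0.0709% lower and 0.113% higher of all genes tested.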

How the data were processed

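Total RNA of RS from 18 libraries was sequenced with a stranded kit without polyA selection. Per the labels and the study's methods, the authors removed adapters (cutadapt 3.4), mapped to GRCm38 using STAR 2.7.8a and deposited raw counts of uniquely mapped reads per gene, made by featureCounts of Subread 2.0.1 with strand and the GENCODE M18 annotation. Genes that share sequence lose reads in such counts. No column (0) was left without a library.

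Genotypes were read from the labels. Gene symbols and classes came from GENCODE M21, in which 54165 of 54232 genes had a symbol and 275 members the same span. TPM used the exon lengths in the table. edgeR 4.0.16 (R 4.3.3) fitted all 18 libraries by genotype after filterByExpr with TMM factors, using the quasi-likelihood test and, past 1 log2 unit, glmTreat in its worst-case form, both two-sided with Benjamini-Hochberg adjustment over 21058 genes at 0.1. DESeq2 1.42.0, other scalings, filters, membership rules, libraries left out and close pairs summed were alternatives. The fit was tested on simulated data. Distances between libraries are median squared differences over those expected from counting. Intervals from the fit are 95%, and the floor of 3 counts covers counting error only.

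The members, gene lists and comparison sets were chosen with earlier results of these data known. Named members were, for each mutant, the 8 largest falls and 8 largest rises among members called without overlap with WT; every member called between KI and KO; the 5 highest coding and 5 highest other members by TPM; the 5 of highest CPM with intervals within 0.5 of 0 in both mutants; the 2 genes on each side of 5 CPM; members called within 10 Mb of Ddx25; and called members with an opposite-strand neighbour called past 1 log2 unit. Other names are said to be chosen after their values were seen, or carry a RefSeq name, a motif or a call without the library labelled KI 4.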

Additional observations from a re-analysis of the deposited data

Results flagged for a closer look

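In 93 checks of named members and genes, 1 for each genotype of 6 libraries, the highest or lowest library was compared with the rest, and chance flags about 1 in 20 such groups. A library stood apart in 5 of them. 1700001O22Rik was at 96.95 normalised CPM in WT 6, against 123 to 132 in the other WT libraries. 1700008K24Rik was at 236 in WT 5, against 181 to 199. 1700017M07Rik was at 17.4 in the library labelled KI 4, against 7.37 to 9.07 in the other KI libraries. In KO 3, 1700019A02Rik was at 98.4, against 136 to 153 in the other KO libraries, and 1700086L19Rik at 193, against 269.7 to 287.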

How the results depend on the processing

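The counts of lower members kept within 1.5 times of 141 (KO) and 169 (KI) in every alternative run, except that KI fell to 112 with close pairs of libraries summed and to 104 when the library labelled KI 4 was also left out. That summing leaves 3 WT, 5 KO and 4 KI libraries. Leaving out single libraries gave 120 to 156 lower members in KO and 152 to 177 in KI. Past 1 log2 unit, 21 in KO became 13 with members chosen by the mean over KO and KI, and 27 in KI became 16 with close pairs summed. The few higher members changed most: 11 in KO became 7 at an adjusted p under 0.05, 17 with column totals in place of TMM factors, 5 with close pairs summed with or without the library labelled KI 4, 4 with members at 10 CPM or more in WT, and 7 to 13 with single libraries left out. In KI, 6 became 11 with column totals, 2 with close pairs summed, 1 with close pairs summed and no KI 4, and 3 at 10 CPM or more. With column totals the median log2 fold change of all genes moved from 0.03 to 0.15 in KO and from 0.05 to 0.20 in KI, all genes called were 2151 lower and 5214 higher in KO and 2485 and 5628 in KI (2836 and 3461, and 3247 and 3397, with TMM), and 113 and 143 members were lower. Between KI and KO, 0 lower members became 1 without a filter on low counts, 2 with close pairs summed and the library labelled KI 4 left out, and 0 to 4 with single libraries left out, of which 0 to 1 past 1 log2 unit. The 0 higher members became 1 by DESeq2 and 0 to 1 with single libraries left out. The upper ends of these ranges between KI and KO are those without the library labelled KI 4. The WT share of 1.61% became 1.72% of TMM-scaled counts. Of 1618 recomputed fold changes of named members, 1586 kept direction and side of the threshold, 22 lost and 10 gained a call, and 0 reversed. Summing pairs and leaving out libraries leave fewer samples, and a higher WT limit fewer members. The cause of the other moves was not tested.

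For libraries with the same replicate number, deviations from the genotype means correlated between -0.44 and 0.48. Libraries of different number were not set beside them, so whether the number marks a shared batch was not tested. A fit with the replicate number as a block gave 148 lower members in KO, 175 in KI and 1 between KI and KO. Of all genes in that fit, 13.8% were lower in KO and 15.8% in KI. Between KI and KO, 0.0475% were lower and 0.0617% higher.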
